A study of Mus musculus with 6 samples.

Results

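The genes described here are imprinted genes of the mouse, chosen by name as a list of 46. Of these, 38 had a probe set that GEO's platform annotation assigns to that gene alone and were measured, among 19938 genes measured in the same way. Mirg, Snrpn, Ube3a and Gnas were represented only by probe sets assigned to several genes, and H19, Kcnq1ot1, Zrsr1 and Slc22a3 had none listed, so these 8 were not analysed here. The samples came from mouse W4 cells, an embryonic stem cell line, after 16 days of neural differentiation in F12-DMEM/Neurobasal medium with B27 and N2 supplements. The treated group received valproate (VPA, 300 uM) for all 16 days, and the control group received its solvent, phosphate-buffered saline (PBS). VPA is an antiepileptic drug that inhibits histone deacetylases, and the labels call this dose sub-toxic. Each group had 3 arrays, described as biological replicates of a single cell line, and no genetic change separates the groups. Total RNA was labelled as sense-strand DNA for Affymetrix whole-transcript arrays, which read a population of cells, so a higher signal cannot be told apart from a larger share of cells that express the gene.

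Imprinted genes are transcribed mainly from the copy inherited from 1 parent. For most of them the choice is set by DNA methylation laid down in the germ line at control regions. This methylation is kept through later divisions by proteins that recognise the methylated copy, such as ZFP57. Most lie in domains where a few paternally and maternally expressed genes, often with a long non-coding RNA, answer to a shared control region. Many of them govern fetal growth, placental function, and the growth and maturation of neurons, and some are imprinted only in placenta or only in brain. The arrays measured the total transcript of a gene and not the parental allele it came from, so parental classes below are background from mouse genetics and not a measurement.

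Values are the authors' normalized log2 signals, where a difference of 1 is a doubling. VPA replicate 1 stood further from its group than any other array. Over all genes its median absolute difference was 0.125 from VPA replicate 2 and 0.132 from VPA replicate 3, against 0.073 between VPA replicates 2 and 3 and 0.06 to 0.066 between PBS arrays. Among the imprinted genes it read higher than the average of VPA replicates 2 and 3 for 23 of 38, with a median difference of 0.04.

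Changes are VPA minus PBS with the standard error (SE) of the limma fit. With VPA, 11 of the 38 genes were higher and 10 lower at a Benjamini-Hochberg adjusted p under 0.05 over all 19938 genes, which is 55.3% of them, against 29.2% of all genes called (13.6% higher and 15.7% lower). Without VPA replicate 1, 11 were higher and 12 lower, where 8173 of all genes were called, against 5825 with all arrays. Leaving out any 1 other array gave 3836 to 4947 calls among all genes. Signals of the 3 VPA and 3 PBS arrays did not overlap for 26 of the 38, or 68.4%, against 44.0% of all genes. Rises and falls nearly balanced. The median change was -0.02 over the members and 0.0013 over all genes, while the median absolute change was 0.24 over the members and 0.12 over all genes. Of the 38, 33 had a mean signal over the 6 arrays at or above 6.15, among them Slc38a4, whose PBS mean was below it. That level is the 95th percentile of 1027 olfactory receptor genes, which are mostly silent outside the nose and served as a gauge of background. Of those 33 genes 60.6% were called, against 36.0% of all genes at or above that level.

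**Figure D1:**
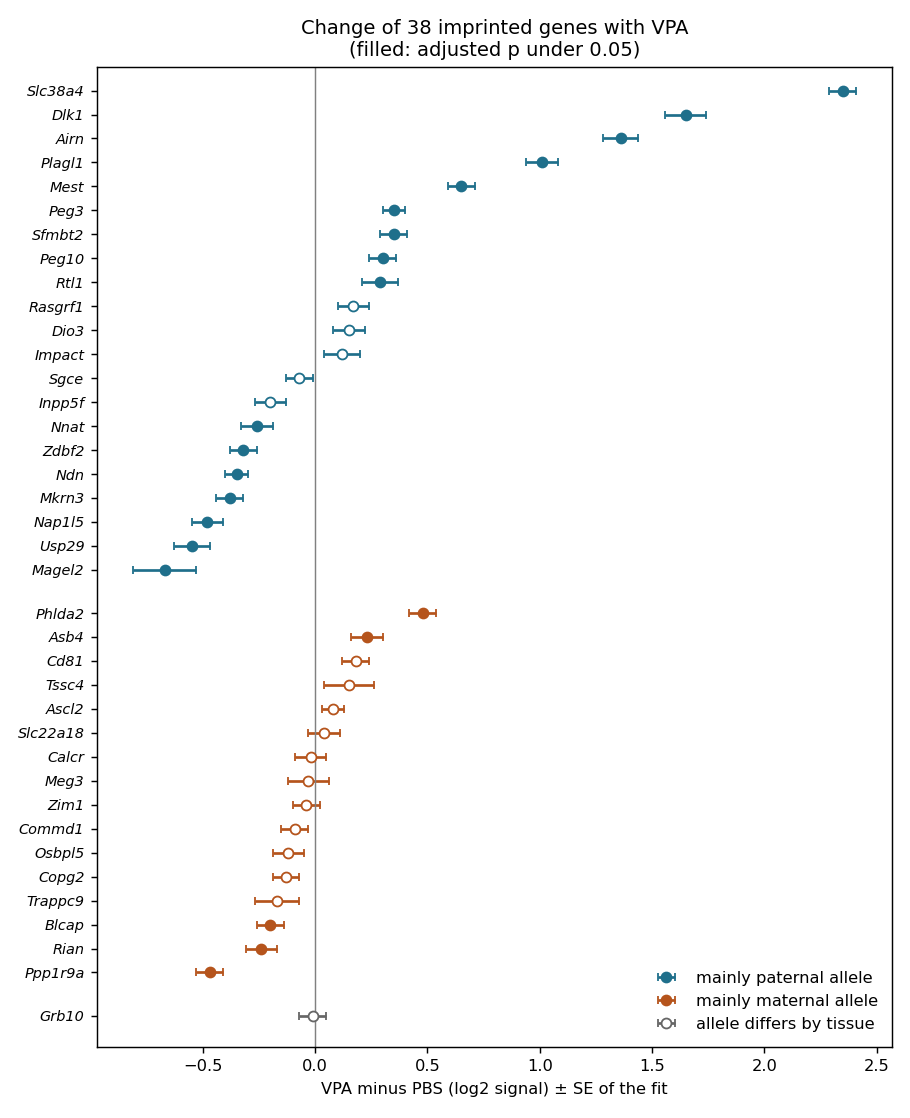
Change of each of the 38 measured imprinted genes (VPA minus PBS, log2 signal, points with the SE of the fit as bars), grouped by the parental allele that is mainly expressed in mouse, with filled points where the adjusted p was under 0.05. The paternally expressed genes ran from -0.67 to 2.35 and the maternally expressed genes from -0.47 to 0.48.

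Grouped by parental class, 16 of 21 paternally expressed genes passed (76.2%, against 29.2% of all genes). Of these, 9 were higher and 7 lower, and the median change of the 21 was 0.15. Of 16 maternally expressed genes 5 passed (31.2%, against 29.2% of all genes), 2 higher and 3 lower, with a median of -0.03. The number lower was 5 without VPA replicate 1 (median -0.09), where 8173 of all genes were called, against 5825 with all arrays. It was 1 without VPA replicate 2, without PBS replicate 3 or after quantile normalization. The number higher was 1 without VPA replicate 2 or any 1 PBS array. Grb10, an adaptor that restrains insulin and growth factor signalling and is expressed from different parental alleles in neurons and in other tissues, differed by -0.01 (SE 0.06). The 5 largest rises, of Slc38a4, Dlk1, Airn, Plagl1 and Mest, and the 2 largest falls, of Magel2 and Usp29, were all of paternally expressed genes, and these 7 were the members past the threshold with a change of at least 0.5 in either direction. A change of that size was called for 7.77% of all genes. Of the 8 measured genes whose imprinting is restricted to certain tissues other than placenta, 1 passed (12.5%, against 29.2% of all genes). Of the 6 measured genes imprinted mainly in placenta, 2 passed (33.3%), and of the 24 without such a restriction, 18 passed (75.0%). Most of the maternally expressed members, but few of the paternally expressed ones, are restricted in this way. Parental class and restriction were not separated in these counts.

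The largest change was in Slc38a4, which encodes a sodium-coupled neutral amino acid transporter best known from liver and placenta. Its log2 signal was 8.27, 8.32 and 8.38 on the VPA arrays, against 5.89, 6.00 and 6.04 on the PBS arrays. Each VPA value stood far above each PBS value, and the groups did not overlap. The measured difference was 2.35 (SE 0.06, adjusted p = 3.93e-07), which ranked 10 among the rises of all genes. Its PBS mean of 5.98 lay below the background gauge, so the true size of the rise is not defined, and the VPA mean lay 2.17 above the gauge.

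Plagl1 encodes a zinc finger transcription factor, also called Zac1, that arrests the cell cycle and is known to regulate other imprinted genes. It gave 10.92, 10.69 and 10.80 with VPA, against 9.75, 9.83 and 9.80 with PBS. Signals within each group lay close together and the groups were well apart, a change of 1.01 (SE 0.07, 2.01-fold, adjusted p = 1.7e-05). Mest, a paternally expressed gene of embryonic mesoderm that encodes a protein of the hydrolase fold, read 12.13, 12.00 and 12.03 on VPA arrays and 11.42, 11.37 and 11.43 on PBS arrays. The groups again did not overlap, and Mest rose by 0.65 (SE 0.06, 1.57-fold, adjusted p = 7.32e-05). Its neighbour Copg2, a coatomer subunit gene whose 3′ end meets that of Mest and which is maternally expressed in many tissues, averaged 9.90 ± 0.05 with VPA and 10.04 ± 0.05 with PBS (SD, n = 3 each), a difference of -0.13 that did not pass (adjusted p = 0.12).

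**Figure D2:**
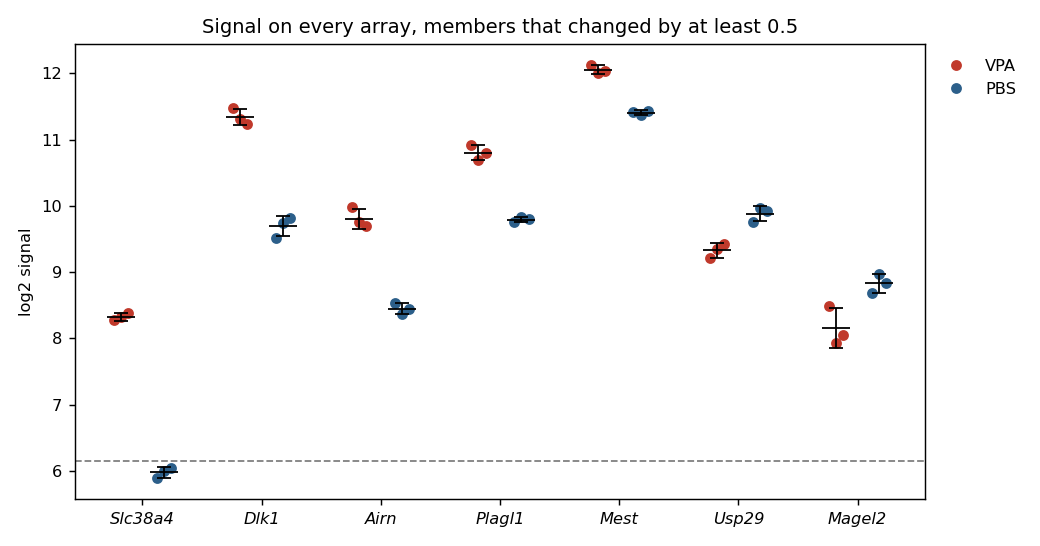
Log2 signal on every array for the 7 imprinted genes that passed the test with a change of at least 0.5 (VPA left of PBS for each gene; points are arrays, bars the mean and SD, n = 3; the dashed line is the background gauge at 6.15). The VPA and PBS points do not overlap for any of the 7, and the PBS points of Slc38a4 lie below the gauge.

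Dlk1, Plagl1 and Mest are also expressed by mesodermal and mesenchymal cells of the embryo, and markers of such cells moved with VPA. All 10 fibroblast and mesenchyme markers measured rose (100%, against 29.2% of all genes called). Their mean log2 signal was 9.36 to 9.45 over the VPA arrays, against 7.67 to 7.90 over the PBS arrays. None of the 10 had a mean over the 6 arrays below the background gauge, but the PBS mean of Fap, 5.58, lay below it. The largest of these changes were those of Postn at 2.66, Lum at 2.29, Prrx1 at 1.90 and Col3a1 at 1.59. Of 8 striated and smooth muscle markers 7 rose (87.5%, against 29.2% of all genes called). Their mean signals were 7.71 to 8.25 with VPA and 6.36 to 6.46 with PBS. Of 10 neuronal markers 8 fell, with 10.74 to 10.76 on VPA arrays and 10.96 to 11.03 on PBS arrays, and none of the 10 was below the gauge. The largest falls among them were changes of -0.40 for Syp, -0.37 for Dcx, -0.31 for Elavl3 and -0.30 for Stmn2. The call of Elavl3 was lost in 6 alternative settings, among them without VPA replicate 2 or 3 or any 1 PBS array (adjusted p between 0.0503 and 0.0653). The falls among neuronal markers numbered 4 without PBS replicate 2, 5 without PBS replicate 1 and 6 to 8 without any 1 of the other arrays. Of 6 endothelial markers 5 rose, of 8 neural progenitor markers 3 rose and 1 fell, of 6 astrocyte markers 3 fell, and of 8 endoderm markers Gata6 alone passed, with a rise of 0.53. The fall among progenitor markers, of Sox1, was lost when any 1 array but VPA replicate 1 was left out (adjusted p between 0.0629 and 0.0813). Among the progenitor rises, that of Nes was lost without PBS replicate 2 (adjusted p = 0.0547). Among astrocyte markers Gfap changed by -0.27 (adjusted p = 0.041). Its call was lost without VPA replicate 1 or 3 or any 1 PBS array (adjusted p between 0.0608 and 0.153). The part of these cell types in the changes of the imprinted genes was not tested. All 8 pluripotency markers, Pou5f1 and Nanog among them, had mean signals over the 6 arrays below the gauge, as did all 4 markers of microglia and leukocytes. Of the pluripotency markers Klf4 rose by 0.21 (adjusted p = 0.0163), with means of 6.23 with VPA and 6.02 with PBS, the second below the gauge, and its call was lost when any 1 PBS array was left out (adjusted p between 0.0604 and 0.0648).

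The H19-Igf2 and Dlk1-Dio3 domains each hold a paternally expressed growth regulator beside maternally expressed non-coding RNAs. Igf2, the fetal insulin-like growth factor and the neighbour of H19, is no member of the list but gave 11.58, 11.45 and 11.59 with VPA, against 9.53, 9.64 and 9.83 with PBS, a rise of 1.87 (SE 0.08, adjusted p = 2.13e-06). Dlk1, a membrane protein related to Notch ligands that holds back the maturation of fat and other mesenchymal cells and is also active in neural stem cells, read 11.47, 11.31 and 11.23 on VPA arrays. On the PBS arrays it read 9.52, 9.74 and 9.81. The groups were far apart, and Dlk1 rose by 1.65 (SE 0.09, 3.13-fold, adjusted p = 5.06e-06).

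The other measured genes of the Dlk1-Dio3 domain had changes between -0.24 and 0.29. The non-coding RNA gene Meg3, transcribed from the maternal copy, read 11.91, 11.63 and 11.58 with VPA and 11.74, 11.76 and 11.70 with PBS. These groups overlapped, with VPA replicate 1 above and the other VPA arrays below every PBS array, and the difference was -0.03 (SE 0.09, adjusted p = 0.85). Rian, a maternally expressed host of small nucleolar RNAs, averaged 8.47 ± 0.11 with VPA and 8.71 ± 0.07 with PBS (SD, n = 3 each) and fell by 0.24 (adjusted p = 0.0338). Rtl1, a retrotransposon-derived gene needed in placenta, rose by 0.29 (SE 0.08, adjusted p = 0.0204), with means of 6.70 with VPA and 6.41 with PBS. The call of Rian was lost in 5 of 16 alternative settings, among them without VPA replicate 2 or without PBS replicate 1 or 3 (adjusted p = 0.114, 0.126 and 0.112). The call of Rtl1 was lost in 4, among them without VPA replicate 3 or without PBS replicate 1 or 2 (adjusted p = 0.0661, 0.0815 and 0.0896). Dio3, which encodes the deiodinase that inactivates thyroid hormone, had means of 5.79 with VPA and 5.64 with PBS, both below the background gauge, and differed by 0.15.

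Between Meg3 and Dio3 the same strand carries a large cluster of microRNA genes. Of 47 listed, 40 had a probe set of their own, and 7 of these rose and 2 fell (22.5%, against 29.2% of all genes), with a median change of 0.09. Those that rose were Mir323, Mir377, Mir329, Mir679, Mir134, Mir668 and Mir673, and those that fell were Mir376b and Mir136. Mir323 read 7.08, 6.54 and 6.53 with VPA against 5.95, 6.02 and 6.04 with PBS, a rise of 0.72 (SE 0.13, adjusted p = 0.00393) over a PBS mean below the gauge. Mir377 rose by 0.52 (SE 0.10, adjusted p = 0.00416). Mir376b read 6.16, 5.61 and 5.57 with VPA against 6.65, 6.58 and 6.16 with PBS, a measured change of -0.68 (SE 0.17, adjusted p = 0.0168) with a VPA mean of 5.78, below the gauge. VPA replicate 1 met the lowest PBS array, so the groups overlapped. Mir136 changed by -0.53 (SE 0.13, adjusted p = 0.0147), with both means, 5.44 with VPA and 5.97 with PBS, below the gauge. VPA replicate 1 read higher than VPA replicates 2 and 3 over this cluster (median excess 0.35). Without it 7 rose and 8 fell, with a median change of -0.01. In that fit 8173 of all genes were called, against 5825 with all arrays. Without VPA replicate 3, 10 rose and neither fall was called, and the rises numbered 4 without PBS replicate 2 or PBS replicate 3. Of the 9 calls made with all arrays, only that of Mir673 held in a fit with unmoderated variances (adjusted p = 0.0122). The other calls, the 4 largest among them, were lost there, with values from 0.0501 for Mir134 to 0.17 for Mir329. Mir329 and Mir668 also lost their calls when any 1 PBS array was left out, Mir329 without VPA replicate 2, and Mir679 without PBS replicate 2 or 3. Mir376b also lost its call without VPA replicate 2 or 3 or PBS replicate 1 or 2, and Mir136 without VPA replicate 3 or PBS replicate 2 or 3. Such probe sets read the hairpin's stretch of longer transcripts, and no mature microRNA was measured.

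The mature sequences of the 4 microRNA genes with the largest changes past the threshold are printed to identify these genes. The sequences are taken from RefSeq on GRCm38.p6, 5′ to 3′, with the seed (bases 2 to 8) in capitals. No seed is shared between them, which holds whatever the signals and says nothing about the changes measured.
mmu-miR-323-5p (chr12:109712523-109712544, plus strand): aGGUGGUCcguggcgcguucgc
mmu-miR-323-3p (chr12:109712558-109712578, plus strand): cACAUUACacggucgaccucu
mmu-miR-377-5p (chr12:109740515-109740536, plus strand): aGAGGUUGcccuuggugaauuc
mmu-miR-377-3p (chr12:109740553-109740574, plus strand): aUCACACAaaggcaacuuuugu
mmu-miR-376b-5p (chr12:109723471-109723492, plus strand): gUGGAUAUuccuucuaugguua
mmu-miR-376b-3p (chr12:109723508-109723528, plus strand): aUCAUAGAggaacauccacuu
mmu-miR-136-5p (chr12:109595331-109595352, plus strand): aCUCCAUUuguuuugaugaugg
mmu-miR-136-3p (chr12:109595366-109595387, plus strand): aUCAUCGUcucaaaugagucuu

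**Figure D3:**
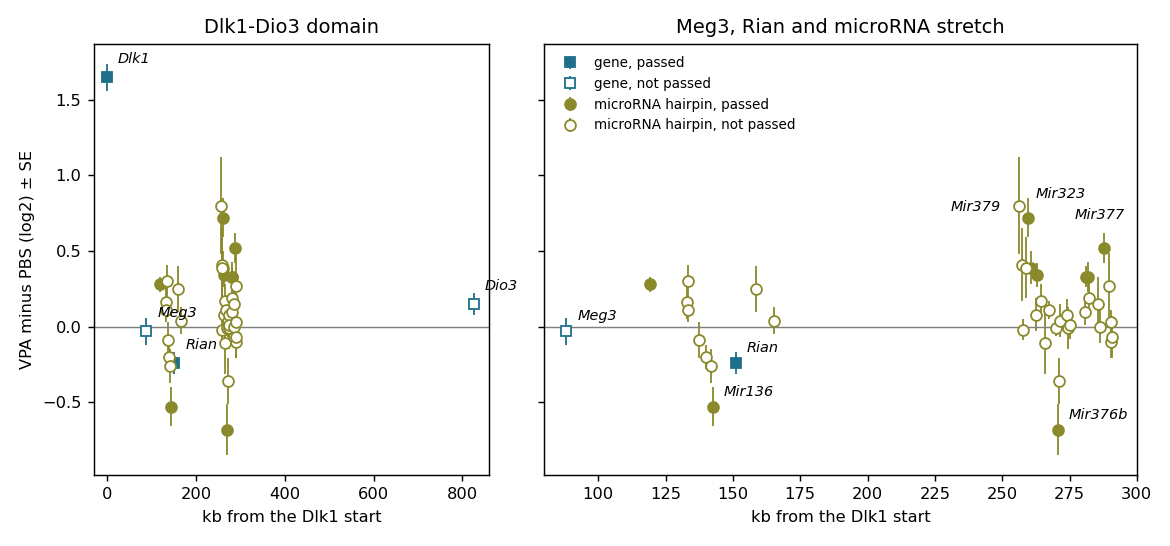
Change with VPA (log2, points with the SE of the fit as bars) against distance in kb from the Dlk1 start, for genes (squares) and microRNA hairpins (circles) of the Dlk1-Dio3 domain, filled where the adjusted p was under 0.05; the right panel enlarges the stretch from Meg3 through the microRNA cluster, and Rtl1 and Mir666 are not drawn. Dlk1 stands at 1.65, while Meg3 at 88.2 kb and Rian at 151.1 kb lie at -0.03 and -0.24 and the hairpins between -0.68 and 0.80.

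The Peg3 domain gave opposite changes from a pair of genes with the same parental origin. Peg3, a zinc finger gene that affects growth in mice, read 11.84, 11.82 and 11.78 with VPA and 11.46, 11.46 and 11.45 with PBS, and rose by 0.35 (SE 0.05, adjusted p = 0.00108). Usp29, which encodes a ubiquitin-specific protease, read 9.21, 9.35 and 9.42 with VPA against 9.76, 9.97 and 9.92 with PBS. The groups of neither gene overlapped, and Usp29 changed by -0.55 (SE 0.08, adjusted p = 0.000848). Zim1, a maternally expressed zinc finger gene of the domain, differed by -0.04 (adjusted p = 0.675).

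Peg3 and Usp29 are transcribed away from each other from start positions 164 bases apart, and their 300-base promoter windows in RefSeq (GRCm38.p6, 250 bases before to 50 after the start) share 263 bases. The Usp29 window is printed because the pair changed in opposite directions from this single stretch, which holds 17 CpG sites; capitals mark the bases from the Peg3 start to the Usp29 start.
Peg3 and Usp29, shared promoter (chr7:6730333-6730632, plus strand): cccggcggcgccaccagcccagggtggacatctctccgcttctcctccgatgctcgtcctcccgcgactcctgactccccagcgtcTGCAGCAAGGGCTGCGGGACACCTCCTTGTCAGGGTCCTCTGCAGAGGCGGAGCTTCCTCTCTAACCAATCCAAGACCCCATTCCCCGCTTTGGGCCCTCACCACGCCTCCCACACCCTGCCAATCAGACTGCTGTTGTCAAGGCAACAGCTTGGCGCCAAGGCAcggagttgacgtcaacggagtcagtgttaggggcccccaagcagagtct

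Peg10 and Sgce are likewise paternally expressed and divergent from a shared promoter. Peg10, a retrotransposon-derived gene needed for the placenta, averaged 12.04 ± 0.08 with VPA and 11.74 ± 0.06 with PBS (SD, n = 3 each), a rise of 0.30 (SE 0.06, adjusted p = 0.0068). Sgce, the epsilon-sarcoglycan gene, differed by -0.07 (adjusted p = 0.407). Ppp1r9a, which encodes the neuronal actin scaffold neurabin and is maternally expressed in placenta, read 8.03, 8.07 and 8.13 with VPA and 8.61, 8.50 and 8.53 with PBS, and changed by -0.47 (SE 0.06, adjusted p = 0.00043). Of the other measured genes there, Casd1, a sialic acid acetyltransferase gene outside the list, changed by -0.42 (adjusted p = 0.00584), and did not pass with unmoderated variances (adjusted p = 0.0649). Asb4, of the ankyrin and SOCS box family, rose by 0.23 (adjusted p = 0.0383), but its means of 5.69 with VPA and 5.45 with PBS were both below the background gauge and its call was lost in 7 alternative settings, among them without VPA replicate 2 or any 1 PBS array (adjusted p between 0.0801 and 0.116). Calcr, the calcitonin receptor gene, was also below the gauge in both groups and differed by -0.02.

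Pairs of neighbours were compared as the log2 difference of the pair on each array. The pairs, 9 in all, were chosen after the values were seen. With VPA the Dlk1 minus Meg3 difference was higher by 1.67 (SE 0.10), Peg3 minus Usp29 by 0.91 (SE 0.10), Mest minus Copg2 by 0.78 (SE 0.08), Peg10 minus Ppp1r9a by 0.77 (SE 0.08), Peg3 minus Zim1 by 0.39 (SE 0.04) and Peg10 minus Sgce by 0.37 (SE 0.08). Together with Airn minus Igf2r these 7 did not overlap between groups. Of all single genes 44.0% did not overlap, and no such share was computed over gene pairs. With pairs chosen after the values were seen, the count of 7 is only a description of these pairs. Each of the 7 had an exact permutation p of 0.1 (two-sided), the smallest that 3 against 3 arrays allow, and 0.129 after adjustment over the 9 pairs. Nnat minus Blcap, at -0.06 (SE 0.08, exact permutation p = 0.5), and Ndn minus Magel2, at 0.32 (SE 0.19, exact permutation p = 0.3), overlapped.

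**Figure D4:**
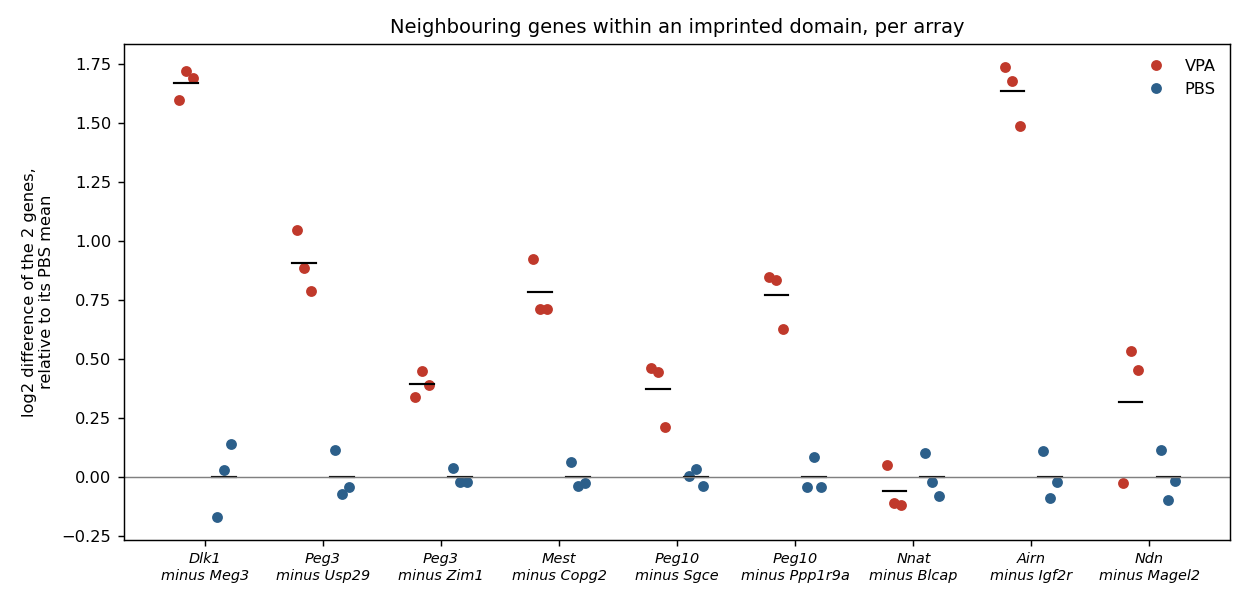
Log2 signal of the first gene minus that of the second on each array, set relative to its PBS mean, for 9 pairs of neighbours within imprinted domains (VPA points left of PBS points, lines are means of 3 arrays). The VPA points lie above all PBS points for 7 pairs, by 1.67 on average for Dlk1 minus Meg3, and overlap the PBS points for Nnat minus Blcap and Ndn minus Magel2.

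Airn is the long paternal RNA that runs antisense through Igf2r and silences it in cis. Airn read 9.98, 9.75 and 9.69 with VPA, against 8.53, 8.37 and 8.44 with PBS. All VPA arrays lay above all PBS arrays, and Airn rose by 1.36 (SE 0.08, 2.57-fold, adjusted p = 9.26e-06). Igf2r, the scavenger receptor for IGF2, expressed mainly from the maternal copy but from both in neurons, read 8.33, 8.16 and 8.29 with VPA and 8.51, 8.55 and 8.55 with PBS, a change of -0.28 (SE 0.06, adjusted p = 0.0103). The Airn minus Igf2r difference was higher with VPA by 1.64 (SE 0.10, exact permutation p = 0.1). The transcripts overlap on opposite strands; the labelling keeps the strand, but where the probes of each set lie was not examined here.

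The 3 measured list members of the Prader-Willi and Angelman domain, Magel2, Ndn and Mkrn3, fell, and each is paternally expressed. Magel2, an adaptor of a ubiquitin ligase that acts in endosomal sorting, read 8.49, 7.93 and 8.05 with VPA and 8.69, 8.97 and 8.83 with PBS. The groups did not overlap, although VPA replicate 1 lay nearer to the PBS arrays than to the other VPA arrays, and the change was -0.67 (SE 0.14, adjusted p = 0.00563). Without moderation of the variances its call was lost (adjusted p = 0.0865). Ndn, which encodes necdin, a protein that restrains the cycle of cells becoming neurons, read 11.80, 11.80 and 11.85 with VPA and 12.14, 12.21 and 12.16 with PBS, and changed by -0.35 (SE 0.05, adjusted p = 0.00135). Mkrn3, a ubiquitin ligase gene that restrains the onset of puberty, read 7.45, 7.49 and 7.55 with VPA and 7.87, 7.85 and 7.91 with PBS, and changed by -0.38 (SE 0.06, adjusted p = 0.00109). Further genes of this stretch, on the list of other imprinted genes, did not pass. Peg12 differed by 0.04 (adjusted p = 0.674) and Atp10a by 0.06 (adjusted p = 0.518).

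Nap1l5, Zdbf2 and Nnat, paternally expressed genes of separate domains, passed with lower signals. Nap1l5, an intronless gene of the nucleosome assembly family, read 9.90, 9.88 and 10.06 with VPA and 10.37, 10.52 and 10.39 with PBS, and changed by -0.48 (SE 0.07, adjusted p = 0.00112). Zdbf2, a zinc finger gene of the hypothalamus that affects early growth, changed by -0.32 (SE 0.06, adjusted p = 0.00234), with means of 10.75 on VPA arrays and 11.08 on PBS arrays. Nnat, which encodes the small membrane protein neuronatin, averaged 12.80 ± 0.10 with VPA and 13.06 ± 0.01 with PBS (SD, n = 3 each) and changed by -0.26 (adjusted p = 0.0157). Blcap, a maternally expressed gene whose intron holds Nnat, changed by -0.20 (adjusted p = 0.0336). The call of Nnat was lost in 6 and that of Blcap in 7 of the 16 alternative settings, which included leaving out any array but VPA replicate 1 for Nnat (adjusted p between 0.0505 and 0.0601) and leaving out VPA replicate 2 or 3 or PBS replicate 2 or 3 for Blcap (adjusted p between 0.0747 and 0.137). Inpp5f, a phosphoinositide phosphatase gene with a paternal brain isoform, differed by -0.20 without overlap of the groups but did not pass (adjusted p = 0.0669).

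In the Kcnq1ot1 domain 1 of 6 measured members passed (16.7%, against 29.2% of all genes). Phlda2, a maternally expressed gene that limits placental growth, read 7.06, 6.98 and 7.18 with VPA and 6.59, 6.59 and 6.61 with PBS, and rose by 0.48 (SE 0.06, adjusted p = 0.000615). Its neighbour Cdkn1c, a maternally expressed inhibitor of cyclin-dependent kinases and no member of the list, read 8.76, 8.93 and 8.89 with VPA and 8.52, 8.50 and 8.54 with PBS, and rose by 0.34 (SE 0.06, adjusted p = 0.00355). Kcnq1, the potassium channel gene that gives the domain's non-coding RNA its name, differed by 0.16 (adjusted p = 0.172). The tetraspanin gene Cd81 differed by 0.18 without overlap (adjusted p = 0.0658), and passed in 5 of the 16 alternative settings. Tssc4 differed by 0.15, the organic cation transporter gene Slc22a18 by 0.04 and the lipid transfer gene Osbpl5 by -0.12. For Tssc4 the VPA values were 8.23, 7.80 and 7.80, so the difference lay in VPA replicate 1. Ascl2, a transcription factor gene of trophoblast, was below the background gauge in both groups and differed by 0.08.

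Sfmbt2, a Polycomb gene that is paternally expressed in early embryo and placenta, read 8.25, 8.23 and 8.15 with VPA and 7.88, 7.85 and 7.87 with PBS, and rose by 0.35 (SE 0.06, adjusted p = 0.00174). Markers of trophoblast were measured beside such genes. Of 7 measured, 4 had mean signals below the gauge, namely Cdx2, Elf5, Tfap2c and Ctsq, while Tpbpa rose by a measured 1.32 (SE 0.17, adjusted p = 0.000441) over a PBS mean of 6.00 that was also below the gauge, and Syna rose by 0.36 (SE 0.07, adjusted p = 0.00451). The mean signal of the trophoblast list was 5.80 to 6.02 over the VPA arrays and 5.59 to 5.73 over the PBS arrays, and its part in the change of Sfmbt2 was not tested. The remaining members did not pass. Impact, an inhibitor of the amino acid sensor GCN2, differed by 0.12, Commd1, an endosomal trafficking gene, by -0.09, and Rasgrf1, a Ras exchange factor gene below the gauge in both groups, by 0.17. Kcnq1 and Osbpl5 passed without VPA replicate 1 (adjusted p = 0.0201 and 0.0187). Inpp5f passed in 4 of the 16 alternative settings, among them without VPA replicate 3 (adjusted p = 0.0445). Trappc9, a trafficking complex gene that is mainly maternally expressed in brain, differed by -0.17 over all arrays (adjusted p = 0.238) and by -0.29 without VPA replicate 1 (adjusted p = 0.00617).

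**Figure D5:**
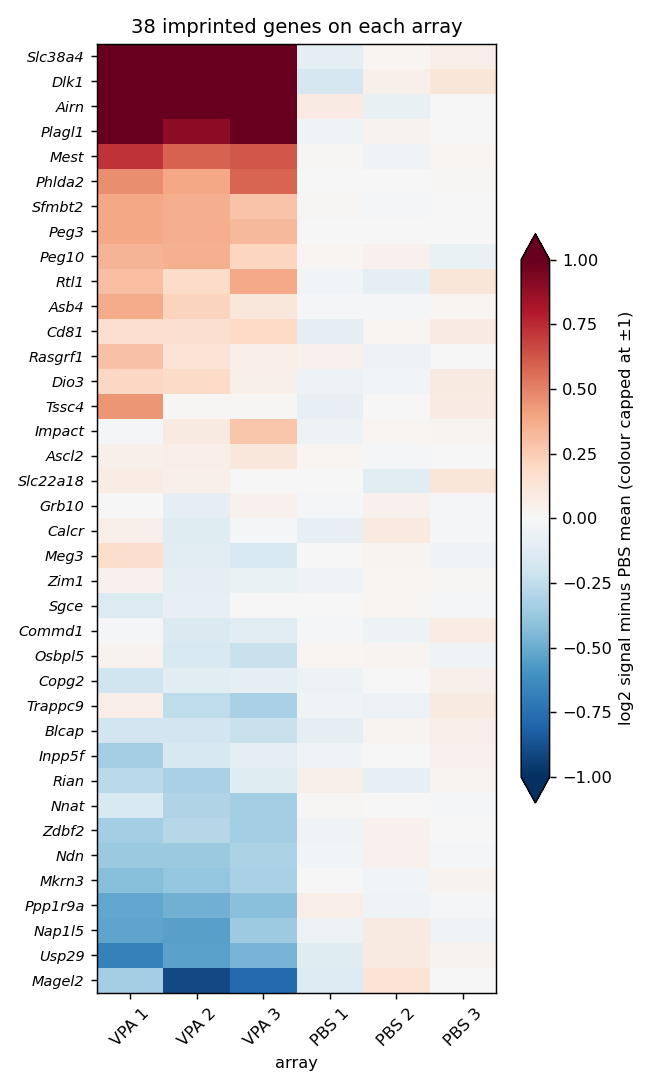
Log2 signal of each of the 38 imprinted genes (rows, ordered by change) on each array (columns) minus the mean of the PBS arrays, with colour capped at 1 in either direction. The top rows, from Slc38a4 to Mest, are high on all 3 VPA arrays; Tssc4, Meg3, Trappc9 and Magel2 show VPA replicate 1 apart from the other VPA arrays.

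Among 23 measured genes of a list of 28 other imprinted genes, 7 rose and 3 fell (43.5%, against 29.2% of all genes), with a median change of 0.11. The rises numbered 4 without VPA replicate 2, without PBS replicate 1 or without PBS replicate 3. They numbered 9 without VPA replicate 1, where 8173 of all genes were called, against 5825 with all arrays. Of the rises, Slc22a2 and Tnfrsf23 were below the gauge in both groups, and the groups of Kcnk9 overlapped. Besides Igf2, the largest rises were those of Dcn, the matrix proteoglycan decorin that also marks fibroblasts, at 2.28 (SE 0.10, adjusted p = 1.91e-06), and Ddc, which encodes the decarboxylase of dopamine and serotonin synthesis, at 0.91 (SE 0.10, adjusted p = 0.000196) over a PBS mean of 5.35 below the gauge. Ano1, a calcium-activated chloride channel gene imprinted in placenta, read 6.21, 6.31 and 6.25 with VPA against 7.33, 7.16 and 7.51 with PBS. That is a change of -1.07 (SE 0.09, adjusted p = 4.19e-05). Its VPA mean of 6.26 lay only 0.10 above the gauge, so the fall ended near background and may be understated.

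Of 25 measured genes that read or maintain imprints or DNA methylation, from a list of 26, 2 rose and 6 fell (32.0%, against 29.2% of all genes), with a median change of -0.05 and a range from -0.42 to 0.49. With an array left out, 1 to 3 rose and 3 to 9 fell. Without VPA replicate 1, 3 rose and 9 fell, where 8173 of all genes were called, against 5825 with all arrays. Without PBS replicate 1, 2 rose and 3 fell, where 3959 of all genes were called. The number that rose was 1 without VPA replicate 2 or 3 or PBS replicate 2 or 3. Zfp57, the zinc finger protein that binds methylated imprint control regions, read 11.42, 11.39 and 11.43 with VPA against 11.78, 11.85 and 11.79 with PBS, and changed by -0.39 (SE 0.05, adjusted p = 0.000752). Zfp445, which shares that task in mouse, changed by -0.27 (SE 0.06, adjusted p = 0.00849). Atrx, a chromatin remodeller gene, changed by -0.42 (SE 0.10, adjusted p = 0.0107), and Uhrf1, which brings the maintenance methyltransferase to newly copied DNA, rose by 0.49 (SE 0.11, adjusted p = 0.00803). Arid4a, a chromatin gene linked to imprinting in the Prader-Willi domain of mice, changed by -0.30 (SE 0.08, adjusted p = 0.0178). The calls of Uhrf1, Atrx and Arid4a were lost without moderation of the variances, that of Atrx also without PBS replicate 1 (adjusted p = 0.0516), and that of Arid4a also without VPA replicate 2 or PBS replicate 1 or 2. The DNA methyltransferase genes Dnmt1, Dnmt3a, Dnmt3b and Dnmt3l did not pass, with differences of -0.05, 0.10, 0.00 and 0.03.

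The hexamer TGCCGC, searched on both strands, is the sequence that ZFP57 binds when its CpG is methylated. In the RefSeq promoter windows of 300 bases (GRCm38.p6; of several windows for a gene, the one with the most CpG sites), it occurred for 11 of 33 measured members (33.3%) and for 12.2% of 27025 genes, where the median CpG counts were 17 and 8. Among members it occurred for 2 of 9 that rose, 2 of 10 that fell and 7 of 14 that did not pass. The windows of the called genes that hold it are printed to set the promoters of genes that rose (Mest, Plagl1) beside those of genes that fell (Nap1l5, Nnat), 5′ to 3′ with the hexamer or its complement in capitals. A match describes these letters, and neither binding nor methylation was measured.
Mest promoter (chr6:30737800-30738099, plus strand): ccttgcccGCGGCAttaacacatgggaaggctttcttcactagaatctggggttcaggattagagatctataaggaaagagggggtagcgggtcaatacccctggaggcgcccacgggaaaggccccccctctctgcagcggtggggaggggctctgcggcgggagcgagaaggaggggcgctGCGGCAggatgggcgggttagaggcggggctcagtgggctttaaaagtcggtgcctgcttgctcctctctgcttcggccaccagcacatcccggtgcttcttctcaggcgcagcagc
Plagl1 promoter (chr10:13090582-13090881, plus strand): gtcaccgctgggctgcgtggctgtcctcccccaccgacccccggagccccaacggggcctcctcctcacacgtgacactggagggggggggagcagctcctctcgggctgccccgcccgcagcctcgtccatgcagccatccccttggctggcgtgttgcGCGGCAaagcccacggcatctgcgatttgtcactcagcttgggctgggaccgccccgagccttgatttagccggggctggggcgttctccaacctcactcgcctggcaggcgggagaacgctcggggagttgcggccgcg
Nap1l5 promoter (chr6:58907077-58907376, minus strand): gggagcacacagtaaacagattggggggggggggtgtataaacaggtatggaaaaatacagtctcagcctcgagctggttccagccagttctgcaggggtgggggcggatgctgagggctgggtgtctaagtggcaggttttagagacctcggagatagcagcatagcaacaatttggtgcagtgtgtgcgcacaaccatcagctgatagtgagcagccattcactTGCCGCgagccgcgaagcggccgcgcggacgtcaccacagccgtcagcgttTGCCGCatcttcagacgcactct
Nnat promoter (chr2:157559828-157560127, plus strand): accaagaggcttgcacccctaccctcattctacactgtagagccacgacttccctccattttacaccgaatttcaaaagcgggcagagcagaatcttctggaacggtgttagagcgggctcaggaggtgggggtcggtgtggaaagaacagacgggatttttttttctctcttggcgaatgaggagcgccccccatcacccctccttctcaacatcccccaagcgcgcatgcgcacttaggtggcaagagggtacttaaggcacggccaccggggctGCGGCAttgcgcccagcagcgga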

How the data were processed

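The authors deposited 1 table of normalized log2 signals per probe set, with 1 column per array. Base 2 was inferred from the range of 2.50 to 13.89, and array medians lay between 6.99 and 7.03. The submitters' processing notes name Partek 6.5 and mm9, with no role stated; how background was corrected and probes were summarized and normalized is not given in the sources used here. Normalization of arrays to each other makes each change relative to the other genes. No batch or scan date was given, and the number of arrays limits the precision.

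Of 35556 probe sets, GEO's platform annotation pairs 21789 with a single symbol, 1621 with several and 12146 with none. Entrez IDs gave current RefSeq symbols (GRCm38.p6) for 21698 of the single-symbol probe sets; the other 91 kept theirs. Where a gene had several probe sets, the brightest across the 6 arrays stood for it (19938 genes). Each of the 38 measured members had a single such probe set.

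VPA and PBS were compared with limma 3.58.1 in R 4.3.3 (lmFit, eBayes, no covariates), and p-values were adjusted by the Benjamini-Hochberg method over all 19938 genes. The fit was tested on simulated data in which 200 genes were changed, far fewer than were called here. It recovered 10% of changes of 0.25, 72% of changes of 0.5 and 96% of changes of 1. With so few changed genes the adjustment is stricter than in the real comparison, so these rates can be too low for it. A change near 0.25 that did not pass can still have been missed. The members and lists were chosen with earlier results of these data known. Every measured member is described. Members past the threshold with a change of at least 0.5 are given with every array, and for other lists up to 4 genes with the largest changes past the threshold are named, with Igf2, Igf2r, Cdkn1c and Kcnq1 in any case; other genes were chosen after their values were seen. Replicates are biological by the series' design text, from 1 cell line. The alternatives are given in the closing section.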

Additional observations from a re-analysis of the deposited data

How the results depend on the processing

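Of the 21 imprinted genes called, 15 were called under all 16 alternatives, and no called member changed sign. The exceptions were Magel2, Nnat, Blcap, Rian, Rtl1 and Asb4. Of the members not called, Cd81 passed in 5 alternatives, Inpp5f in 4, and Osbpl5 and Trappc9 in 2 each. The number of members higher lay between 9 and 12 and the number lower between 6 and 13; the lowest count of lower members, 6, came without moderation of the variances. Without moderation 3731 of all genes were called and with array weights 8917, against 5825. Leaving out each array in turn gave 3836 to 8173 calls among all genes (3836 without PBS replicate 2, the highest count without VPA replicate 1), 9 to 11 members higher and 7 to 12 lower. Filters on dim genes left 33 members to test. Deviations of same-numbered VPA and PBS arrays from their group means had correlations of -0.02, -0.008 and 0.02 over all genes. The labels state no pairing, and with 3 arrays per group these correlations cannot show that there was none. With the replicate number as a block 10 members were higher and 9 lower and 5410 genes were called. The median change of the members ran from -0.056 with array weights to 0.023 without VPA replicate 2. The causes of the changes in calls were not tested. Signals below the background gauge limit Slc38a4 with PBS, and Asb4, Ascl2, Calcr, Dio3 and Rasgrf1 in both groups.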
